A study of Mus musculus with 4 samples.

Results

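The cytosolic ribosomal protein genes encode the proteins that, together with ribosomal RNA, build the small and the large subunit of the ribosome in the cytosol. They were taken as every mouse protein-coding gene whose symbol is Rpl or Rps followed by a number (with an optional suffix a, x, y or l1), or Rplp0, Rplp1 or Rplp2, without pseudogenes and S6 kinases. Of 77 such genes in the RefSeq annotation, 69 had a probe on the array (41 of the large subunit, 28 of the small), out of 8127 genes that could be named. A probe above background was found for 64 of the 69 (39 large subunit, 25 small), out of 3481 named genes with such a probe.

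The cells were mouse embryonic fibroblasts of the CF1 strain, whose division had been stopped with mitomycin C, as is done to make a feeder layer for human embryonic stem cells. Every group carried this inactivation and was seeded onto gelatine, with 55000 cells to each square centimetre. The medium was then changed to the basic medium for human embryonic stem cells, with serum replacement and 0, 4, 13 or 40 ng/ml of FGF2 (fibroblast growth factor 2), for 24 h. There were 3 arrays of untreated control, labelled as biological replicates, and 1 array at each dose, all from one strain of fibroblasts that no longer divide.

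Ribosomal protein messenger RNAs are among the most abundant in any growing cell, and they begin with a run of pyrimidines called the 5′-terminal oligopyrimidine (TOP) tract. Growth factors that signal through mTORC1 are known to raise the translation of TOP messenger RNAs through the LARP1 and 4E-BP proteins, without a matching change in their amount. Growth factors are also known to act on ribosome production earlier, through transcription of ribosomal DNA by RNA polymerase I and through the nucleolar factors that process and assemble ribosomal RNA. The arrays measured messenger RNA amount relative to the total RNA of a sample, since 300 ng of RNA entered each amplification. In such samples fewer cells of a type and less RNA per cell cannot be told apart.

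The start of transcription, where the TOP tract lies, was read for the 52 of 69 members in the RefSeq promoter table of the assembly GRCm38.p6. Windows of 60 bases, 40 before and 20 after the annotated start, are shown for 3 members that passed the test below (Rps27, Rpl13a and Rpl7l1) and for Rps6 and Rplp0, which serve as reference members. Capitals mark a C followed by at least 4 C or T that begins within 5 bases of the annotated start.
Rps27, chr3:90213629-90213688 (minus strand): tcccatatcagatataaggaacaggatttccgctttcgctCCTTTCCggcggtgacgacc
Rps6, chr4:86857348-86857407 (minus strand): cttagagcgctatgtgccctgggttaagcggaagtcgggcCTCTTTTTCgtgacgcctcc
Rpl13a, chr7:45128726-45128785 (minus strand): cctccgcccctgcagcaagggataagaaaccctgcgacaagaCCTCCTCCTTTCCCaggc
Rpl7l1, chr17:46782637-46782696 (minus strand): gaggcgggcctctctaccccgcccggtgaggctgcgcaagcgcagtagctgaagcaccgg
Rplp0, chr5:115559427-115559486 (plus strand): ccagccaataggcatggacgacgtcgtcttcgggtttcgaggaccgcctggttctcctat
The tract was 7 bases long in Rps27 and 9 in Rps6 and began at the annotated start in both, and in Rpl13a it was 14 bases long and began 2 bases after it. Rpl7l1 and Rplp0 had no such run within 5 bases of the annotated start, which was not checked against measured starts.

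A tract at the annotated start itself was found in 12 of the 52 members (23.1%), against 3.01% of 27025 genes in the table. Within 5 bases of the start the shares were 50% (26 of 52) and 21.2%. The annotated starts were not checked against measured ones, so these need not be the shares of messenger RNAs with a TOP tract. In the 300 bases of each entry, read on either strand, the ETS core CCGGAAG was present in 21 members (40.4%) and 9.93% of all genes. The YY1 core GCCATNTT was present in 12 members (23.1%) and 6.96% of all genes. The TATA box TATAAA was found in 6 members (11.5%) and 15.7% of all genes. These are descriptions of letters in a window, and none was set against the response to FGF2.

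The arrays were alike in overall quality. Each held 46116 probes, of which 11195 to 11698 were detected, and the median signal was 102.5 to 113.6. Log2 signals of the controls correlated at 0.995 to 0.997 across probes. Of the 5 fibroblast markers with a probe, all 5 were detected, and no probe for a pluripotent (0 of 3), blood (0 of 5), endothelial (0 of 1) or muscle (0 of 1) marker was. The 1 epithelial marker detected, Krt18, was detected on 3 arrays only. Among the fibroblast markers the collagen genes Col1a1, Col1a2 and Col3a1 fell with FGF2 (log2 changes of -2.12, -2.30 and -1.47), and the part of this in any ribosomal protein value was not tested.

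Ribosomal protein probes were among the brightest on every array. Between 11 and 16 of the 50 brightest probes belonged to them, with 13 to 16 on the controls and 14, 11 and 12 at 4, 13 and 40 ng/ml. The brightest probe on all 6 arrays was that of Rpl41, which encodes a very short protein of the large subunit, with a deposited signal of 49244 to 55390. Quantile normalisation gives the brightest probe the same value on each array, so Rpl41 was fixed at a change of 0 and carries no information here. When arrays were scaled to the same median instead, its change was -0.07 (adjusted p = 0.130 in limma), and with cyclic loess it was -0.10 (adjusted p = 0.095 in limma).

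With FGF2 the ribosomal protein messenger RNAs were close to their control level, while a large share of the other transcripts changed. Of the 64 genes, 5 passed the test (7.81%), with Rps27, Rpl36 and Rps29 lower and Rpl13a and Rpl7l1 higher, whereas 36.8% of 11763 probes did (limma, Benjamini-Hochberg adjusted p under 0.05). For all probes, 18.4% were called higher and 18.4% lower. Over the 3 doses together, no member differed by more than 0.254 on the log2 scale (1.19-fold), and 0 of 64 exceeded 2-fold, against 4.05% of all probes. The median change was -0.04 over the 64 genes and 0.01 over all probes, and the median size of the change was 0.07 and 0.11. At an unadjusted p under 0.05 the count was 11 of 64 members, against 5530 of 11763 probes.

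The intervals of the changes were narrow for nearly all members. The 95% interval lay within 0.5 on either side of 0, which is 1.41-fold, for 62 of the 64 genes, and within 1 for all 64 (Rpl41 counted at its fixed value). The exceptions were Rps23, whose interval ran from -0.52 to 0.17, and Rpl30, from -0.48 to 0.78, both with controls that differed widely among themselves. The median standard deviation among the 3 controls was 0.07 for members and 0.05 for all probes. Of the 448 other probes with a mean log2 signal of at least 12, a limit set after the data were seen and not matched to the members probe by probe, 44.4% passed the test, and the median size of their change was 0.20.

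**Figure D1:**
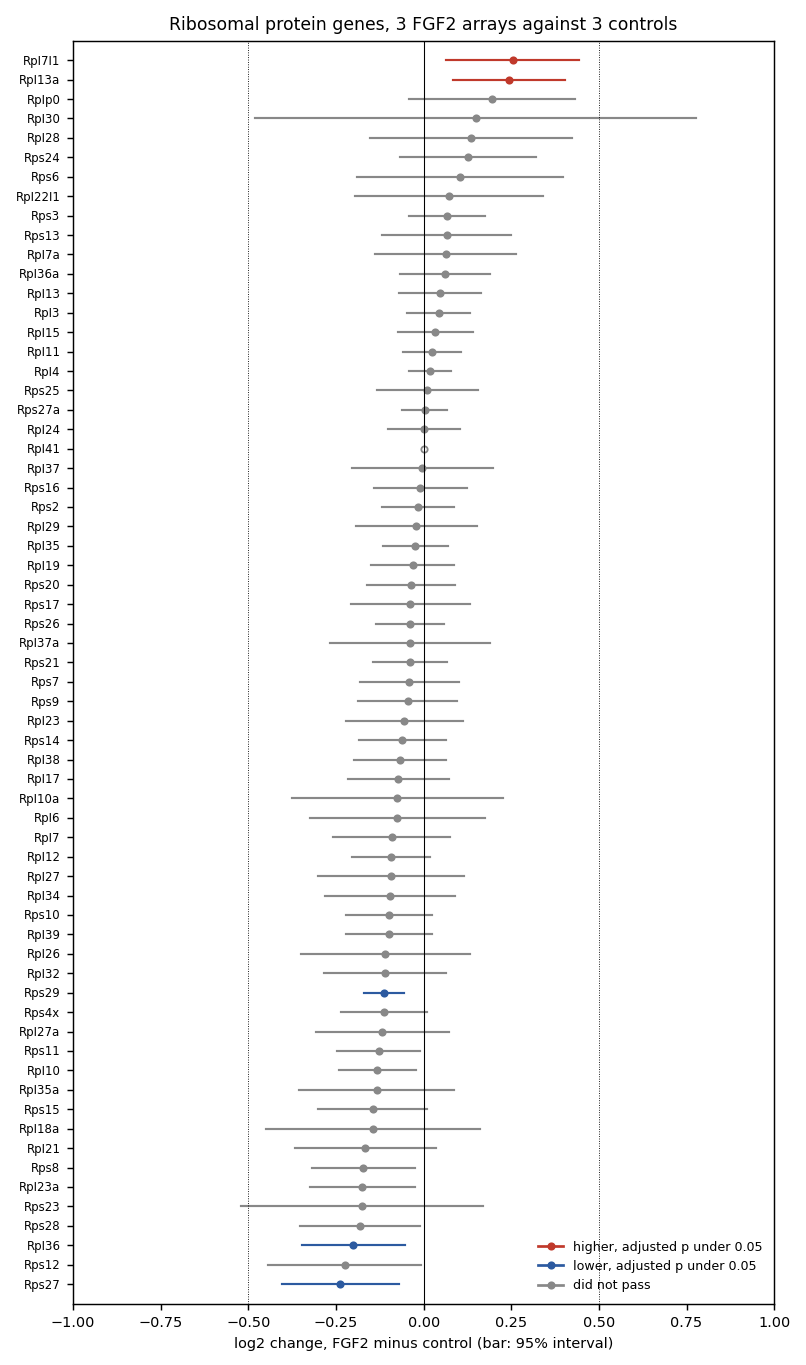
Log2 change (FGF2 minus control, horizontal axis) of each of 64 ribosomal protein genes, ordered by change, with the 95% interval from limma as a bar (3 FGF2 arrays against 3 controls). The dotted lines mark 0.5 on either side of 0; 2 genes passed the test as higher (red), 3 as lower (blue), and Rpl41 (open, without a bar) is held at 0 by the normalisation.

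More members lay below 0 than above it, 44 against 20, with Rpl41, held at 0, counted among the 44. Of all 11763 probes, 5643 lay below 0. For 9 members all 3 FGF2 arrays were below all 3 controls and for 3 they were all above, and the groups overlapped for the other 52. Over all probes the shares were 25.6% for all below and 27.5% for all above. The size of this shift differed with how the arrays were scaled and with which array was left out. The members' median was -0.09 both with scaling to the same median and with cyclic loess, and 49 and 51 members then lay below 0. The median over all probes was -0.02 and 0.00 in these 2 settings. With detected probes scaled to one median, the medians were -0.05 for members and 0.02 for all probes. Without the 40 ng/ml array 35 members lay below 0 (median -0.02), and without the 4 ng/ml array 46 did, Rpl41 counted (median -0.06).

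The count of calls was not stable in these 6 arrays. Cyclic loess called 14 members (2 higher, 12 lower) where quantile normalisation called 5, with 36.9% and 36.8% of all probes called. The count was 1, 0 and 2 without control replicate 1, 2 or 3, with 24.1%, 26.5% and 26.8% of all probes called. Without the 4, 13 or 40 ng/ml array the count was 10, 1 and 1, with 41.7%, 24.5% and 22.3% of all probes called. Among all probes the share of calls that were higher was 50.1%, and 37.9% with scaling to the same median.

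Among the small subunit proteins, 2 of 25 passed the test, both lower, while 36.8% of all probes passed and 18.4% as lower. Rps27, a protein of the small subunit with a zinc finger, had normalised log2 signals of 14.35, 14.43 and 14.21 in the controls and 14.13, 14.13 and 14.01 at 4, 13 and 40 ng/ml. All 3 FGF2 arrays were below all 3 controls. The change was -0.24 ± 0.07 (SE, 3 against 3 arrays, adjusted p = 0.040 in limma). Rps29, another zinc finger protein of the small subunit, read 14.79, 14.78 and 14.76 in the controls and 14.66, 14.65 and 14.68 with FGF2. These were the tightest groups of the called members, and they did not overlap. Its change was -0.11 ± 0.02 (adjusted p = 0.015 in limma), which is 1.08-fold. With median scaling the change was -0.18 and with cyclic loess -0.20.

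Rps6 is the small subunit protein that S6 kinases phosphorylate and that is used as a readout of mTORC1 activity. Its signals were 11.60, 11.83 and 11.60 in the controls and 11.94, 11.85 and 11.56 at rising dose. The groups overlapped, with the 40 ng/ml array the lowest of the 6, and the change of 0.10 ± 0.12 did not pass (adjusted p = 0.540 in limma). Rps27a, which is made as a fusion with ubiquitin, was among the 5 members with the smallest change. It read 14.93, 14.93 and 14.88 in the controls and 14.91 on each FGF2 array, a change of 0.00 with an interval of -0.06 to 0.07. Rps9 and Rps3 each had a second detected probe with a change of the same sign over the 3 doses (-0.05 and -0.03 for Rps9, 0.07 and 0.03 for Rps3), and none of these passed. At 13 ng/ml alone the signs differed within each gene (-0.17 and 0.11 for Rps9, 0.05 and -0.06 for Rps3).

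Among the large subunit proteins, 3 of 39 passed, 1 lower and 2 higher, against 36.8% of all probes (18.4% in each direction). Rpl36 read 12.33, 12.22 and 12.19 in the controls and 12.13, 12.03 and 11.97 at rising dose. All FGF2 arrays were below all controls, and the change was -0.20 ± 0.06 (adjusted p = 0.046 in limma). Rpl13a, which besides its place in the ribosome is known as part of a complex that silences inflammatory messenger RNAs, read 11.96, 11.82 and 11.72 in the controls and 12.06, 12.06 and 12.11 with FGF2. Each FGF2 array was above each control, and the change was 0.24 ± 0.06 (adjusted p = 0.033 in limma). Rpl13a is in wide use as a reference gene in quantitative PCR.

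Rpl7l1, a paralog of Rpl7 known in human cells as a factor in large subunit assembly, also passed as higher. Its brighter probe read 8.29, 8.28 and 8.18 in the controls and 8.35, 8.57 and 8.59 at 4, 13 and 40 ng/ml. The 4 ng/ml array was only just above the controls, the other two were well above, and the change was 0.25 ± 0.08 (adjusted p = 0.049 in limma). Its second probe was also higher, by 0.11 ± 0.02 (adjusted p = 0.018 in limma), with the groups apart. That probe was dim, at 7.33 to 7.48, and its identifier has 2 leading zeros, so its reading as a gene number is the less certain. With median scaling the change of the brighter probe was 0.17 and did not pass (adjusted p = 0.129 in limma). Rpl7 itself did not pass, at -0.09.

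The smallest changes among the large subunit genes, Rpl41 aside, were those of Rpl24 (0.00, interval -0.10 to 0.10) and Rpl37 (0.00, interval -0.21 to 0.20), and with Rps27a and Rps16 (-0.01) they complete the 5 smallest. Rpl27a was the 1 gene whose detected probes differed in sign. The log2 change was -0.12 for its brighter probe and 0.15 for its dimmer one, and neither passed. Rpl4 was detected on 5 of 6 arrays, near the detection limit, with a change of 0.02. Rpl4 and Rplp0 are among 8 members that rest on an identifier with 2 leading zeros, whose reading as a gene number is the less certain.

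Rplp0, Rplp1 and Rplp2 form the stalk of the large subunit that recruits elongation factors. Rplp0 read 9.38, 9.39 and 9.32 in the controls and 9.77, 9.45 and 9.44 at 4, 13 and 40 ng/ml. All 3 FGF2 arrays were above all 3 controls. The 4 ng/ml array stood out, while the arrays at 13 and 40 ng/ml lay 0.09 and 0.08 above the control mean. The change over the 3 doses did not pass (0.20 ± 0.10, adjusted p = 0.166 in limma). Rplp1 had no probe, and the probe of Rplp2 was detected on 1 array only.

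**Figure D2:**
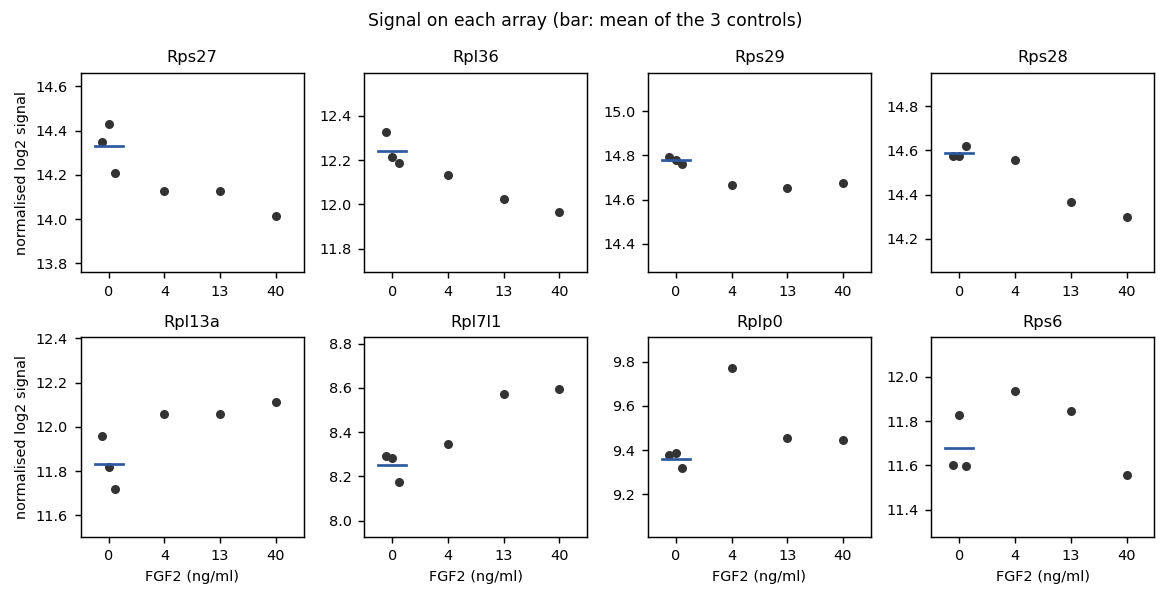
Normalised log2 signal (vertical axis, the same span in each panel) of 8 ribosomal protein genes on the 3 control arrays (0) and at 4, 13 and 40 ng/ml of FGF2, 1 point per array, with the control mean as a bar. Rps27, Rpl36 and Rps29 lie lower on all 3 FGF2 arrays, Rpl13a and Rpl7l1 higher. Rplp0 also lies higher on all 3 but stands out at 4 ng/ml only, and Rps6 overlaps.

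No detected probe was available for Rpl18, Rps18, Rps19, Rps15a and Rplp2. Each had only a probe whose identifier has 2 leading zeros, the class in which 11 of 21 member probes were detected, against 57 of 57 with 1 leading zero. Rpl21, Rpl17, Rpl23, Rpl37 and Rpl38 each had a bright probe and an undetected one, so an undetected probe says little about its gene. Genes under the rule without a probe were not analysed here.

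Among the members, the direction of the change over the 3 doses together went with the brightness of the probe. Of 9 genes with a mean log2 signal under 12, 8 had a positive change and 2 were called higher, with a median of 0.13. Of 55 genes at 12 or above, 43 had a negative change (Rpl41, held at 0, counted among them) and 3 were called lower. Their median was -0.07. The other probes did not split in this way: 5380 of 11247 below 12 and 218 of 448 at 12 or above had a negative change. Of these other probes, 36.6% below 12 and 44.4% at 12 or above were called in either direction. The split of the members was not the same at each dose. At 4, 13 and 40 ng/ml, 0, 1 and 4 of the 9 genes lay below 0, with medians of 0.21, 0.17 and 0.01. Of the 55 genes, 29, 45 and 39 lay below 0 (Rpl41 counted), with medians of -0.0005, -0.07 and -0.08. Whether the brightness of a probe had a part in the direction of its change was not tested.

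**Figure D3:**
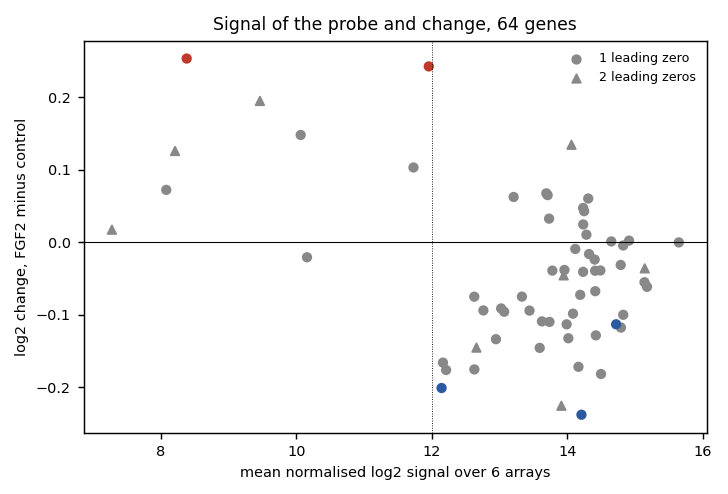
Mean normalised log2 signal over 6 arrays (horizontal axis) and log2 change with FGF2 (vertical axis) of 64 ribosomal protein genes, red for called higher, blue for called lower, grey for not called, circles and triangles for probe identifiers with 1 and 2 leading zeros. Left of the dotted line at 12, 8 of 9 genes lie above 0. Right of it, 43 of 55 lie below, with Rpl41, held at 0, counted among them.

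Each dose was set against the 3 controls to see whether the members moved at 1 concentration. The single treated array is assumed there to vary like the controls, and the comparisons share those controls. The members named for single doses were chosen after their values were seen. At 4 ng/ml, 1 of 64 members was called, Rplp0 (0.41 ± 0.05, adjusted p = 0.020 in limma), while 13.9% of all probes were. At 13 ng/ml, 5 members were called against 25.7% of all probes: Rps9 (-0.17), Rpl27a (-0.27) and Rps28 (-0.22) were lower, and Rpl7l1 (0.32) and Rps13 (0.22) higher. At 40 ng/ml, again 5 were called, against 24.8%: Rpl21 (-0.33), Rpl6 (-0.29), Rpl23a (-0.29) and Rps28 (-0.29) were lower and Rpl7l1 (0.34) higher. The second probes of Rps9 and Rpl27a lay at 0.11 and 0.23 at 13 ng/ml, and as the mean of both probes the changes were -0.03 and -0.02 and did not pass (adjusted p = 0.704 and 0.906 in limma). Rps28, a small subunit protein, read 14.57, 14.57 and 14.62 in the controls and 14.55, 14.37 and 14.30 at rising dose. Over the 3 doses its change of -0.18 did not pass (adjusted p = 0.091 in limma).

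The members' median change was 0.01, -0.05 and -0.08 at 4, 13 and 40 ng/ml, with 29, 46 and 43 of 64 below 0. Rpl41, held at 0, is counted as below 0 at each dose. The median over all probes was 0.01, 0.00 and 0.00. Averaged over the members, the deviation from the control mean was 0.01, -0.04 and -0.09 on the 3 FGF2 arrays. The controls themselves stood at 0.03, 0.01 and -0.04 (SD of the 3 means 0.04), so only the 40 ng/ml array lay outside the control range. Among the 3 FGF2 arrays, a slope per log2 of dose was negative for 51 of 64 members, with Rpl41, fixed at 0, counted among them. The members' median was -0.03 per doubling, and the slope was negative for 5918 of 11763 probes. By limma it was called for 0 of 64, and 0% of all probes passed (lowest adjusted p among members 0.325). At an unadjusted p under 0.05, 12 of 64 members and 1236 of 11763 probes passed.

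In the authors' deposited table, which has 1 value for the control mean and 1 per dose, the members' median log2 changes were 0.07, 0.03 and 0.03 at 4, 13 and 40 ng/ml. The medians over all probes with a value in the authors' deposited table were 0.06, 0.08 and 0.08. There 17, 24 and 28 of 64 members lay below 0, so that most lay above it, as did the medians over all probes.

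Most of the factors that build ribosomes passed the test as higher. Of 24 ribosome biogenesis genes with a detected probe (28 with a probe, 57 listed), 19 rose and 1 fell, with a median of 0.43. All 24 had probes with a mean log2 signal under 12, where 36.6% of other probes passed the test. Fbl, the methyltransferase of box C/D ribonucleoproteins in the nucleolus, read 10.10, 10.01 and 9.92 in the controls and 10.99, 10.90 and 11.13 with FGF2. The groups lay far apart, and the change was 0.997 ± 0.07 (adjusted p = 8.3e-04 in limma). Polr1a, the largest subunit of RNA polymerase I, rose by 0.94 ± 0.13, and Heatr1, a factor needed for ribosomal RNA synthesis and processing, by 0.88 ± 0.07. Both rest on identifiers with 2 leading zeros, and the change of Polr1a was 0.52 as the mean of its probes. The 1 called lower was Ubtf, a transcription factor at ribosomal DNA, at -0.18 ± 0.03 (adjusted p = 0.011 in limma), named after its value was seen.

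Averaged over the 24 biogenesis genes, the deviation from the control mean was 0.38, 0.46 and 0.51 at 4, 13 and 40 ng/ml. The control arrays stood at 0.04, -0.01 and -0.03. All 3 FGF2 arrays were thus above all 3 controls for the mean of the biogenesis genes, while for the mean of the ribosomal proteins the groups overlapped.

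**Figure D4:**
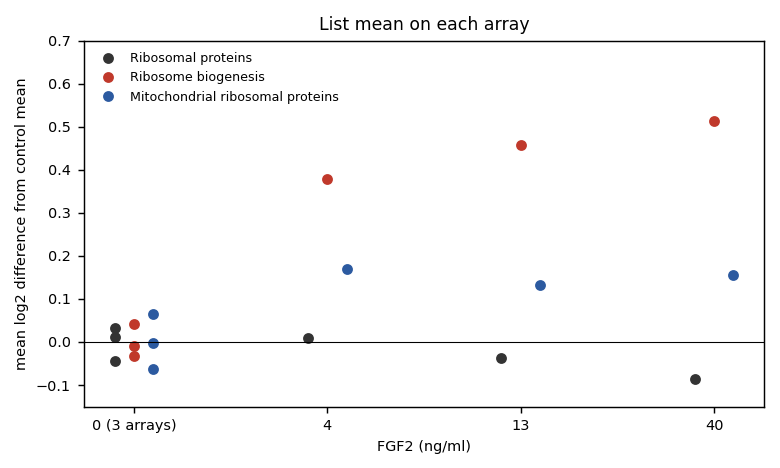
Mean log2 difference from the control mean (vertical axis) over the detected genes of 3 lists on each control array (0) and at 4, 13 and 40 ng/ml of FGF2. Ribosome biogenesis genes lie at 0.38 to 0.51 with FGF2, mitochondrial ribosomal proteins at 0.13 to 0.17, and cytosolic ribosomal proteins at -0.09 to 0.01.

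Mitochondrial ribosomal proteins, which are encoded in the nucleus and serve the separate ribosome of the mitochondrion, were mixed. Of 32 detected genes (35 with a probe), 9 rose and 1 fell, with a median of 0.08, while 36.8% of all probes passed and 36.6% of other probes with a log2 signal under 12, where 30 of the 32 lay. Mrps6 read 10.25, 9.87 and 10.18 in the controls and 11.18, 11.52 and 11.51 with FGF2. Its change of 1.30 ± 0.14 (adjusted p = 0.002 in limma) was larger than any in the cytosolic family. Mrps10 rose by 0.92 ± 0.07 and Mrpl22 by 0.40 ± 0.10, and Mrpl51, named after its value was seen, fell by 0.24 on the log2 scale. Mrpl22 lost its call with median scaling (adjusted p = 0.060 in limma) and without the filter (0.085), and kept it in 2 of 6 fits without 1 array. The count of calls in this list was 3 to 11 over the 11 other settings and 4 to 11 when 1 array was left out, in place of 10.

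Other messenger RNAs known to carry a TOP tract, most of them for translation factors, were listed for comparison. Of 13 detected (16 listed), 3 rose and 0 fell, with a median of 0.03, while 36.8% of all probes were called. Eef1d, a subunit of the exchange factor of elongation factor 1, read 12.47, 12.39 and 12.42 in the controls and 12.68, 12.77 and 12.76 with FGF2, and rose by 0.31 ± 0.04 (adjusted p = 0.003 in limma). Eif4b, a cofactor of the initiation helicase, rose by 0.35 ± 0.09 and Naca, which binds nascent chains at the ribosome, by 0.27 ± 0.08. Naca kept its call in 7 of 11 other settings and 1 of 6 fits without 1 array, and Eif4b in 10 and 2, with a change of 0.19 as the mean of its probes. Eef2, the translocation factor, was at -0.06 ± 0.15 and did not pass.

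The last list held mTORC1 genes, S6 and RSK kinases and regulators of TOP messenger RNAs. Of its 9 detected genes (15 with a probe, 25 listed), 4 rose and 0 fell, against the 36.8% of all probes called. The median was 0.10, and none of Mtor, Rptor, Rheb, Tsc1 and Tsc2 was among the 9. Of the 4 that rose, 1 was detected on the 3 FGF2 arrays only, so that it entered the test through the group where it was higher. Among probes detected on all 6 arrays, 3 were called. Eif4ebp1, the mTORC1 target that holds back cap-dependent initiation, read 12.18, 12.08 and 12.09 in the controls and 12.40, 12.38 and 12.52 with FGF2, a change of 0.32 ± 0.05 (adjusted p = 0.007 in limma). Larp1, which binds TOP tracts, rose by 0.23 ± 0.04 and Rps6ka2, a kinase of the RSK family downstream of ERK, by 0.70 ± 0.13. The change of Larp1 was 0.13 as the mean of its probes, 0.38 without background correction and 0.42 with normexp, and that of Rps6ka2 was 1.10 and 1.19 under the last 2.

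**Figure D5:**
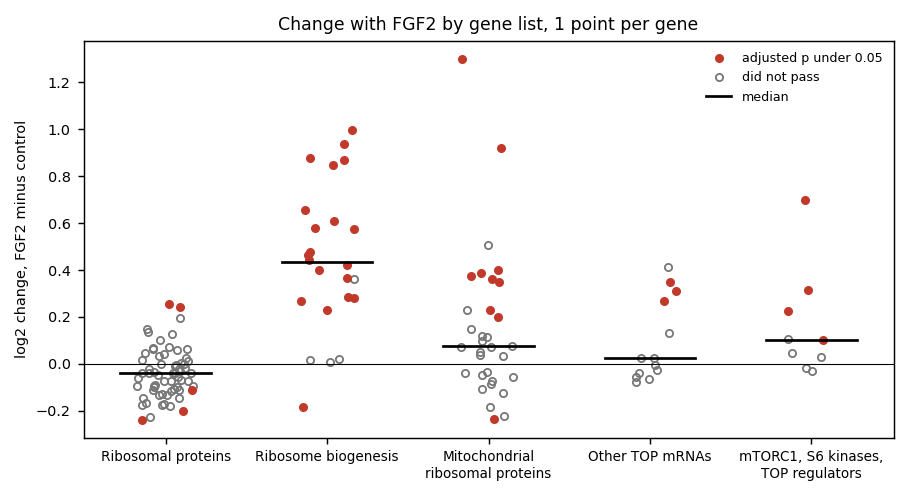
Log2 change with FGF2 (vertical axis), 1 point per gene, for 5 gene lists with 64, 24, 32, 13 and 9 detected genes, filled where adjusted p was under 0.05, with the median as a bar. The ribosomal proteins lie within 0.254 of 0, while 19 of 24 biogenesis genes were called higher.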

How the data were processed

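The deposited intensity of a probe is, per the file headers, the mean over its beads on a linear scale, summarised with BeadStudio 1.0 without background subtraction or normalisation. Per the file headers, a detection score is given beside it, the fraction (0 to 1) that ranks the signal among that array's negative controls. A table of intensities processed by the authors was used only where named; its control column is a mean over the replicates. Signals were corrected and normalised with neqc in limma 3.58.1 (R 4.3.3; negative controls inferred from the scores, offset 16, quantile, log2). Probes with a score of at least 0.99 on at least 3 of 6 arrays were tested (11763) with lmFit and eBayes, two-sided, Benjamini-Hochberg adjusted, threshold 0.05; the procedure was checked on simulated data. Genes were named by reading the number after 1 or 2 zeros in a probe's identifier as an NCBI gene number, which is an inference, and the brightest detected probe stood for a gene.

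The members and lists were chosen with earlier results of these data known. Members named with values were those called, the 5 with the smallest change, Rps6, Rps27a, the stalk proteins, those with discordant probes and those not detected throughout; from related lists, the called genes with the 3 largest changes and the smallest p. Motifs and the brightness limit were chosen after seeing the data. Alternatives covered background, normalisation, filter, prior, probe choice, identifiers and leaving out each array. The small number of arrays limits the precision.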

Additional observations from a re-analysis of the deposited data

How the results depend on the processing

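With 5 of 64 members called over the 3 doses, the count was 3 without background correction, with a trended robust prior and when the detected probes of each array were scaled to one median (added after seeing the data), 2 with normexp, 14 with cyclic loess, 1 without the filter on dim probes, and 0 to 10 when each array was left out in turn. The median of -0.04 became -0.0868 with median scaling and -0.0912 with cyclic loess, where the median over all probes was -0.0224 and 0.0021. At 4 ng/ml (1 called) the count was 0 without background correction, with normexp, median scaling, the trended prior or identifiers with 1 zero only, 3 with cyclic loess, and 0 to 2 leaving out an array; the median of 0.01 became -0.0652 with cyclic loess. At 13 ng/ml (5 called) it was 0 without background correction, with normexp or median scaling, 8 with cyclic loess, 3 without the filter, with the trended prior or with probe means, 1 with the median of detected probes, and 0 to 5 leaving out an array. At 40 ng/ml (5 called) it was 2 with normexp, 1 without the filter, 3 with the median of detected probes, and 0 to 9 leaving out an array. The slope gave 0 calls throughout. The cause was not tested. Over all probes, the fit of 3 doses called 36.8% as reported. It called 42.4% without background correction, 42.4% with normexp and 42.4% with the trended prior. With the median of detected probes it called 34.4%, with cyclic loess 36.9% and without the filter 7.67%. For single doses, the share over all probes is given above for the reported fit only.

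Over 11 other settings and 6 arrays left out, Rps27 and Rpl13a were each called in 10 and 1, Rps29 in 8 and 4, Rpl7l1 in 6 and 1, and Rpl36 in 4 and 1. The adjusted p ranged over all of these from 0.018 to 0.119 for Rps27, 0.014 to 0.105 for Rpl13a, 0.005 to 0.235 for Rps29, 0.005 to 0.142 for Rpl7l1 and 0.021 to 0.130 for Rpl36. None of these 5 changed direction. The count called was 14 to 21 for ribosome biogenesis genes (20 as reported) and 1 to 4 for other TOP messenger RNAs (3). It was 2 to 5 for the list of mTORC1 genes, S6 and RSK kinases and TOP regulators (4). No paired analysis was possible because each dose has 1 array and the groups share fewer than 2 replicate numbers.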
